A study of Mus musculus with 14 samples.

Results

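The D cyclins Ccnd1, Ccnd2, and Ccnd3, the kinases Cdk4 and Cdk6 that they activate, and the CDK inhibitors Cdkn1a, Cdkn1b, Cdkn1c, Cdkn2a, and Cdkn2c were followed in lists of H3K4me3 peaks from LSK cells (Lin-Sca1+cKit+ hematopoietic stem and progenitor cells). The genes were chosen by name for their place in the cell cycle, and they are 10 of the 45053 annotated genes for which a start could be placed. The first 5 stand for cell cycle entry and the other 5 for quiescence. The LSK cells were sorted from the bone marrow (BM) of male C57BL/6J mice with no allele or transgene named. Feeding began when the mice were 3 to 4 wk old, and they received a high-fat diet (60% of energy from fat; HFD-LSK, 3 libraries) or a low-fat diet (10% of energy from fat; LFD-LSK, 4 libraries) for 16 to 20 wk. The comparison asks whether diet-induced obesity was accompanied by a different promoter mark in these cells. CUT&Tag (cleavage under targets and tagmentation) was used, in which an antibody directs a transposase to a histone mark. The sample titles name CUT&RUN, a related method that uses a nuclease, whereas the other label fields and the study's methods name CUT&Tag. The study's methods mention batch and paired samples as covariates, its text mentions a second cohort for LSK cells, and diets were compared there inside one cohort at a time. The labels do not state the cohort, batch, or mice of a library, so the tests here hold no such term, and p-values measure the spread between these libraries, which may in part be technical. LSK cells are a mixture of stem cells and multipotent progenitors, and fewer cells with a mark cannot be told apart from less of the mark per cell. The 7 matched IgG libraries were not analyzed here.

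The exit of a stem cell from quiescence is governed at the restriction point. D cyclins bind CDK4 or CDK6, the active kinase phosphorylates the retinoblastoma protein, and E2F factors are released to switch on genes for DNA replication. Proteins of the INK4 family, which Cdkn2a and Cdkn2c encode, bind CDK4 and CDK6 directly, whereas p21, p27, and p57, which Cdkn1a, Cdkn1b, and Cdkn1c encode, bind complexes of a cyclin with its CDK. In the hematopoietic system CDK6 is known for its part in the exit from quiescence, and p57, p27, and p18 are known for restraint of stem cell division. H3K4me3 marks the start of genes that are active or poised, mostly at promoters rich in CG pairs, and its presence is not a measure of RNA.

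A gene was taken as called in a list when a peak lay within 1 kb of one of its starts (genome build GRCm38). The lists give no coverage between peaks, so strength is given as a fold rank. This is the position of the peak in its own list, ordered from the highest to the lowest fold over local background and expressed as a percent of the list, so that 1% is near the strongest peak and 100% is the weakest. The lists held between 6921 peaks (LFD-LSK replicate 4) and 13094 peaks (HFD-LSK replicate 2), with median widths between 525 and 1198 bp in the same libraries. Values are given in the order of the replicate numbers, first for the 3 HFD-LSK and then for the 4 LFD-LSK libraries. The weakest summits listed held 16, 8, and 4 fragments in HFD-LSK and 21, 10, 8, and 9 in LFD-LSK, as inferred from the fold and p of the peaks. A missing call is therefore not a measured absence of the mark. Of 8 markers of LSK cells, 5 were called in all 7 lists, including Kit and Cd34, whereas Ly6a, which encodes the Sca1 used in the sort, had no peak in any list. Of the markers of T, B, erythroid, mature myeloid, stromal, and endothelial cells reported here, 10 had no start peak in any list, and Cxcl12 (stroma) was called in HFD-LSK replicate 2 at rank 83.1% and in LFD-LSK replicate 4 at 79.0%. Its part in the results below was not tested.

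Promoter stretches of 4 genes are shown first, because they hold the clearest contrasts within the set. Cdkn1b and Cdk4 carried some of the strongest start peaks of the set, and Cdkn1a and Cdkn2a each have 2 annotated starts of which only 1 was marked. The sequences are the 250 bases upstream of each start on the strand of the gene (RefSeq, GRCm38.p6), and capitals mark CG pairs. They lie at chr6:134920151-134920400 (Cdkn1b, plus strand), chr10:127063285-127063534 (Cdk4, plus strand), chr4:89294620-89294869 and chr4:89282193-89282442 (Cdkn2a, minus strand), and chr17:29090729-29090978 and chr17:29093519-29093768 (Cdkn1a, plus strand).
Cdkn1b: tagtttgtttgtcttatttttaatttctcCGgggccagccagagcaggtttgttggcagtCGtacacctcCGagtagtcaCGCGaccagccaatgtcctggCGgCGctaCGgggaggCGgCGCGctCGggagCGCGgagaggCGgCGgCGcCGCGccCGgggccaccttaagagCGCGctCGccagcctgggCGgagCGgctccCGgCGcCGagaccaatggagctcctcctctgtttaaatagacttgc
Cdk4: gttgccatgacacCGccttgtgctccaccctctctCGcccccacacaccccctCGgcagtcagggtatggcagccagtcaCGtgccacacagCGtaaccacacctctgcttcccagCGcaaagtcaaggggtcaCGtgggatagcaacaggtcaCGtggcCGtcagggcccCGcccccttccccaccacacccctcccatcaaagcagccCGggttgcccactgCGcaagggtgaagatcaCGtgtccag
Cdkn2a first start (Arf): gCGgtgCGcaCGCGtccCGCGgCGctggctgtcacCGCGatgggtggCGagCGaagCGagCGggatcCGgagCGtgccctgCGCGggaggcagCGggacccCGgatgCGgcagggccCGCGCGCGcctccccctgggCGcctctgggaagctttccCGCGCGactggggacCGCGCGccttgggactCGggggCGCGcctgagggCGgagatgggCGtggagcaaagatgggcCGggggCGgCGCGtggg
Cdkn2a second start (Ink4a): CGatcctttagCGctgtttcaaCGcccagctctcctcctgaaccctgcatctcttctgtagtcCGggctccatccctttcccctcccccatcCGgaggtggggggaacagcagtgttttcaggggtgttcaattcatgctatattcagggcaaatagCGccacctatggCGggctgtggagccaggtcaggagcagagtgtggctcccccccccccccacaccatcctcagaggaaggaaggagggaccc
Cdkn1a first start: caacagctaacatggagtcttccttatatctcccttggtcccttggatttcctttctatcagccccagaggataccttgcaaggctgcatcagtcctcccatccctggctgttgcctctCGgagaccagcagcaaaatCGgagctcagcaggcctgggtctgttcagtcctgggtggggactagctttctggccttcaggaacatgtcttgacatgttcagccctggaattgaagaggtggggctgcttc
Cdkn1a second start: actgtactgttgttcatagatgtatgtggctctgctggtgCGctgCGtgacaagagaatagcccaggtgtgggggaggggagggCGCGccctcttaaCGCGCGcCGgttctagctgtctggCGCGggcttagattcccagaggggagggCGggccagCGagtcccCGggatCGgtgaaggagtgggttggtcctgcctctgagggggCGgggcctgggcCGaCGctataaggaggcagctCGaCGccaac

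All 10 genes were called at a start in at least 1 list, and 5 of them in all 7 lists (Ccnd3, Cdk4, Cdk6, Cdkn1b, and Cdkn2c). Across all genes with a placed start, 11.9% were called in all 7 lists and 30.4% in at least 1. Among protein-coding genes alone, which all 10 are, these shares were 21.8% and 54.0%. The cell cycle entry genes held 32 of 35 possible calls (91.4%), and the CDK inhibitors held 24 of 35 (68.6%). In HFD-LSK the counts were 15 of 15 for entry genes and 12 of 15 for inhibitors, and in LFD-LSK they were 17 of 20 and 12 of 20. Each HFD-LSK list called 9 of the 10 genes. The LFD-LSK lists called 6, 9, 7, and 7 in replicates 1 to 4, and the same 4 lists called 19.1%, 24.97%, 24.0%, and 16.8% of all genes, compared with 22.8%, 29.0%, and 25.4% in HFD-LSK. LFD-LSK replicates 1 and 4 had the smallest shares of all genes called and the shortest lists. Of the 10 genes, LFD-LSK replicate 3 (10352 peaks) called 7, and the shorter HFD-LSK replicate 1 (9186 peaks) called 9. The part of list length in these counts was not tested.

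No gene of the set was called in each list of one diet and in no list of the other. Over all genes called in at least 1 list, 0.278% were called in each HFD-LSK list alone and 0% in each LFD-LSK list alone. Cdkn2a came nearest, with 3 of 3 HFD-LSK and 1 of 4 LFD-LSK lists (Fisher's exact test, two-sided, p = 0.143; Benjamini-Hochberg adjusted over 13693 genes, p = 1). Ccnd2 followed with 3 of 3 and 2 of 4 (Fisher's exact test, two-sided, p = 0.429; adjusted p = 1). With 3 and 4 lists, Fisher's exact test could pass after adjustment only if most tested genes were called in one diet alone. Without LFD-LSK replicate 2, Cdkn2a became the 1 gene of the set called in HFD-LSK alone. That library had the longest LFD-LSK list, and the share of all genes without it is not given here.

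**Figure D1:**
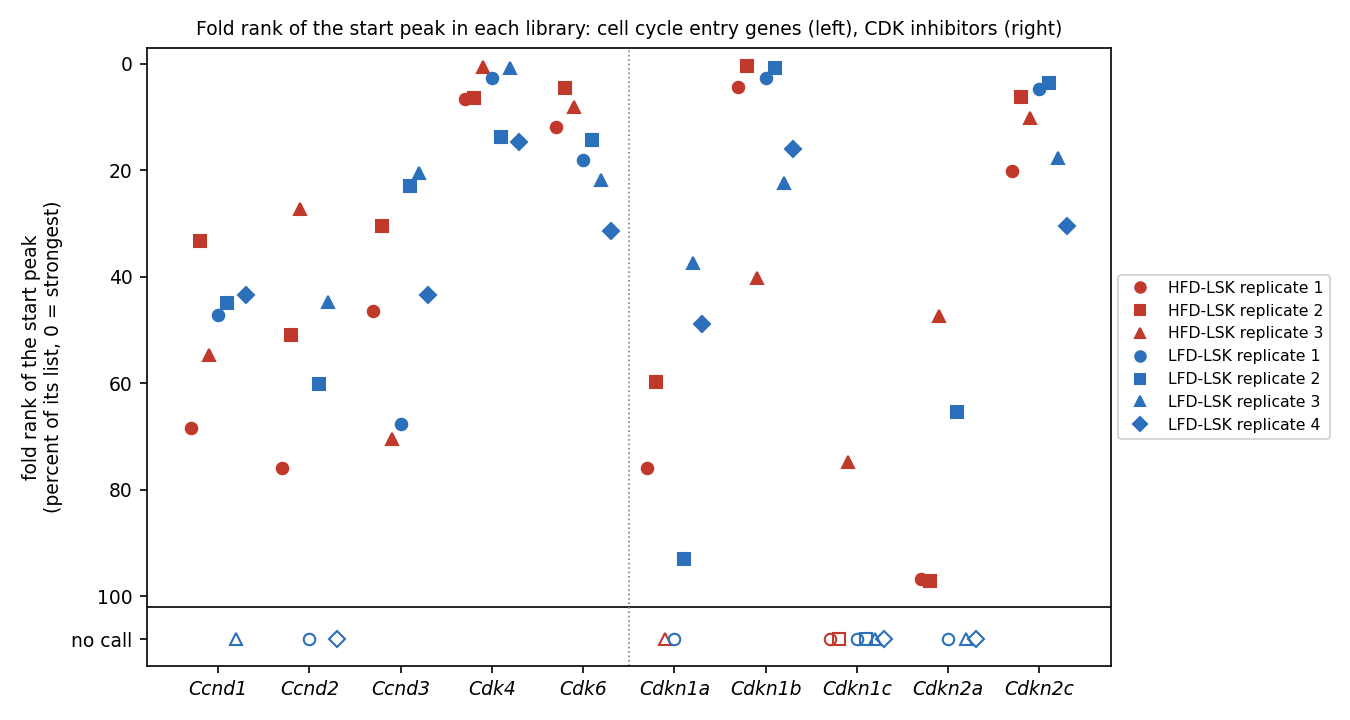
Fold rank of the start peak of each gene in each library, in percent of the library's own list (vertical axis, strongest at the top), with HFD-LSK in red, LFD-LSK in blue, and 1 symbol per replicate. Open symbols in the lower band mark lists without a start peak. Cdk6 is the gene whose red and blue symbols do not overlap among the 5 genes called in all 7 lists.

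Among the D cyclins, which link growth signals to the kinases, Ccnd3 was the one called in all 7 lists. Its annotated starts lie at chr17:47505051 and 88416 bp downstream, and GRCm39 places the canonical transcript at the inner one. The inner start was called in 7 lists and the outer one in 6, missing in LFD-LSK replicate 4. Its strongest start peak ranked at 46.3%, 30.5%, and 70.5% in HFD-LSK and at 67.7%, 22.9%, 20.6%, and 43.4% in LFD-LSK. These ranks mix the starts. The strongest peak lay at the outer start in HFD-LSK replicates 2 and 3 and LFD-LSK replicate 3, and at the inner start elsewhere. In those 3 libraries the inner start ranked at 33.0%, 79.7%, and 37.4%. The diet comparison below used the strongest peak, and the starts were not tested apart. The diets overlapped, and the difference in means of 10.5 percentage points was within the spread between libraries (49.1 ± 20.2, SD, n = 3, against 38.6 ± 21.9, SD, n = 4; two-sided exact permutation test, p = 0.486; adjusted over all genes called in all 7 lists, p = 0.969). Without HFD-LSK replicate 3 the sign of this difference turned (-0.21 percentage points). Ccnd3 also carried the most peaks elsewhere in the gene, 10 peaks in 6 libraries, of which 5 began between 2107 and 2535 bp downstream of the outer start.

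Ccnd1 was called in 6 lists, in 3 of 3 HFD-LSK and in 3 of 4 LFD-LSK. Its start at chr7:144939831 (minus strand) was covered by a peak in each of those 6. The ranks were 68.3%, 33.3%, and 54.8% in HFD-LSK and 47.3%, 44.8%, and 43.4% in LFD-LSK replicates 1, 2, and 4. The LFD-LSK values lay inside the range of the HFD-LSK values. In LFD-LSK replicate 3 the single Ccnd1 peak lay 1728 to 2066 bp downstream of the start, outside the 1 kb limit, and HFD-LSK replicate 3 and LFD-LSK replicate 1 carried a peak at this place in addition to that at the start. In HFD-LSK replicate 2 a single peak of 2849 bp spanned both places, and in LFD-LSK replicate 2 the downstream peak reached to 944 bp from the start and was counted with the start peak.

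Ccnd2, the D cyclin found in many blood progenitors, was called in 3 of 3 HFD-LSK and in 2 of 4 LFD-LSK lists, and this count rests on where its start is put. The start used was the upstream end of the gene at chr6:127152188 (minus strand), whereas GRCm39 places the canonical transcript 1133 bp inside that end. LFD-LSK replicate 1 had a peak of 1601 bp that began 1150 bp downstream, just past the limit, with 46 fragments at its summit and a rank of 52.2%. With a limit of 3 kb this list counts as a call. LFD-LSK replicate 4 had no peak anywhere in Ccnd2. The start peak ranked at 75.9%, 50.9%, and 27.2% in HFD-LSK, and at 60.1% and 44.7% in replicates 2 and 3 of LFD-LSK. In HFD-LSK replicate 1 no peak covered the start, and the 75.9% comes from a peak 352 to 1358 bp upstream. A stronger peak there, at 46.3%, began 1102 bp downstream, also just past the limit. In HFD-LSK replicate 2 the summit lay 2425 bp downstream. HFD-LSK replicate 3 and LFD-LSK replicates 2 and 3 also had peaks downstream past the limit. The long noncoding gene 9330179D12Rik starts inside the start peak of 1 list, HFD-LSK replicate 2, so the mark there cannot be assigned to either gene alone.

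Cdk4 encodes the partner of the D cyclins in most dividing cells, and its start peak ranked among the strongest of each list. The ranks were 6.66%, 6.51%, and 0.693% in HFD-LSK and 2.59%, 13.7%, 0.879%, and 14.7% in LFD-LSK. No list placed it below the upper 14.7%. The diets overlapped (4.62 ± 3.40, SD, n = 3, against 7.95 ± 7.22, SD, n = 4; difference of -3.32 percentage points, two-sided exact permutation test, p = 0.429; adjusted p = 0.969). The peak covered the start at chr10:127063535 in all 7 lists and had between 28 and 90 fragments at its summit. Its widths were 1061, 1487, and 1250 bp in HFD-LSK and 1294, 1335, 911, and 727 bp in LFD-LSK. Within the lists these stood between percentiles 58.1 and 86.9 of width (median 71.9), so the peak was wider than most peaks of each list.

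Cdk6 was the 1 gene of the set whose fold ranks did not overlap between the diets. The ranks were 11.9%, 4.52%, and 8.20% in HFD-LSK and 18.1%, 14.3%, 21.8%, and 31.4% in LFD-LSK. Every HFD-LSK library thus stood nearer the top than every LFD-LSK library, with 2.41 percentage points between the nearest ones. The means were 8.20 ± 3.68 (SD, n = 3) and 21.4 ± 7.32 (SD, n = 4), a difference of -13.2 percentage points (two-sided exact permutation test, p = 0.0571; adjusted p = 0.957). The smallest p this test can give is 0.0286. After adjustment a gene could therefore pass 0.05 only if most of the tested genes held that p. The adjusted values cannot show that the diets were alike. Among the 5372 genes called in all 7 lists, 3.46% stood nearer the top in each HFD-LSK library and 1.55% stood farther from it, the median difference was -1.89 percentage points, and no gene passed an adjusted p of 0.05 in this exact permutation test, whose lowest adjusted p was 0.957 (128 genes had an unadjusted p under 0.05). One of the 5 tested genes of the set was apart in either direction, beside that background.

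The separation at Cdk6 depended on the measure of strength. Ranked by -log10 p the diets overlapped (difference of -14.4 percentage points, two-sided exact permutation test, p = 0.229), and ranked by inferred fragments at the summit they overlapped as well (-9.56 percentage points, p = 0.114, exact permutation test). The fragments at the Cdk6 summit were 65, 83, and 21 in HFD-LSK and 64, 45, 25, and 25 in LFD-LSK. With the upstream end of the gene, 2889 bp before the start, as its single start, the difference turned to 17.8 percentage points (two-sided exact permutation test, p = 0.771). The mark at Cdk6 formed a wide domain from about the upstream end of the gene to beyond the start at chr5:3343893. It was a single peak in replicates 1 and 2 of HFD-LSK (3948 and 4401 bp) and in replicates 1, 2, and 3 of LFD-LSK (3760, 4430, and 3681 bp). In HFD-LSK replicate 3 and in LFD-LSK replicate 4 it was broken into 3 peaks, of which 1 and 2 lay within 1 kb of the start. The strongest of the 3 in LFD-LSK replicate 4 lay 2231 to 2687 bp upstream and ranked at 16.1%, compared with 31.4% for the start peak. The long noncoding gene Gm36470 starts inside the Cdk6 start peak in 6 of the lists, so the mark cannot be assigned to either gene alone. Within the lists the widest Cdk6 start peak stood at the 99.8th percentile of width by its median over the 7 libraries, and at the 53.7th in LFD-LSK replicate 4.

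**Figure D2:**
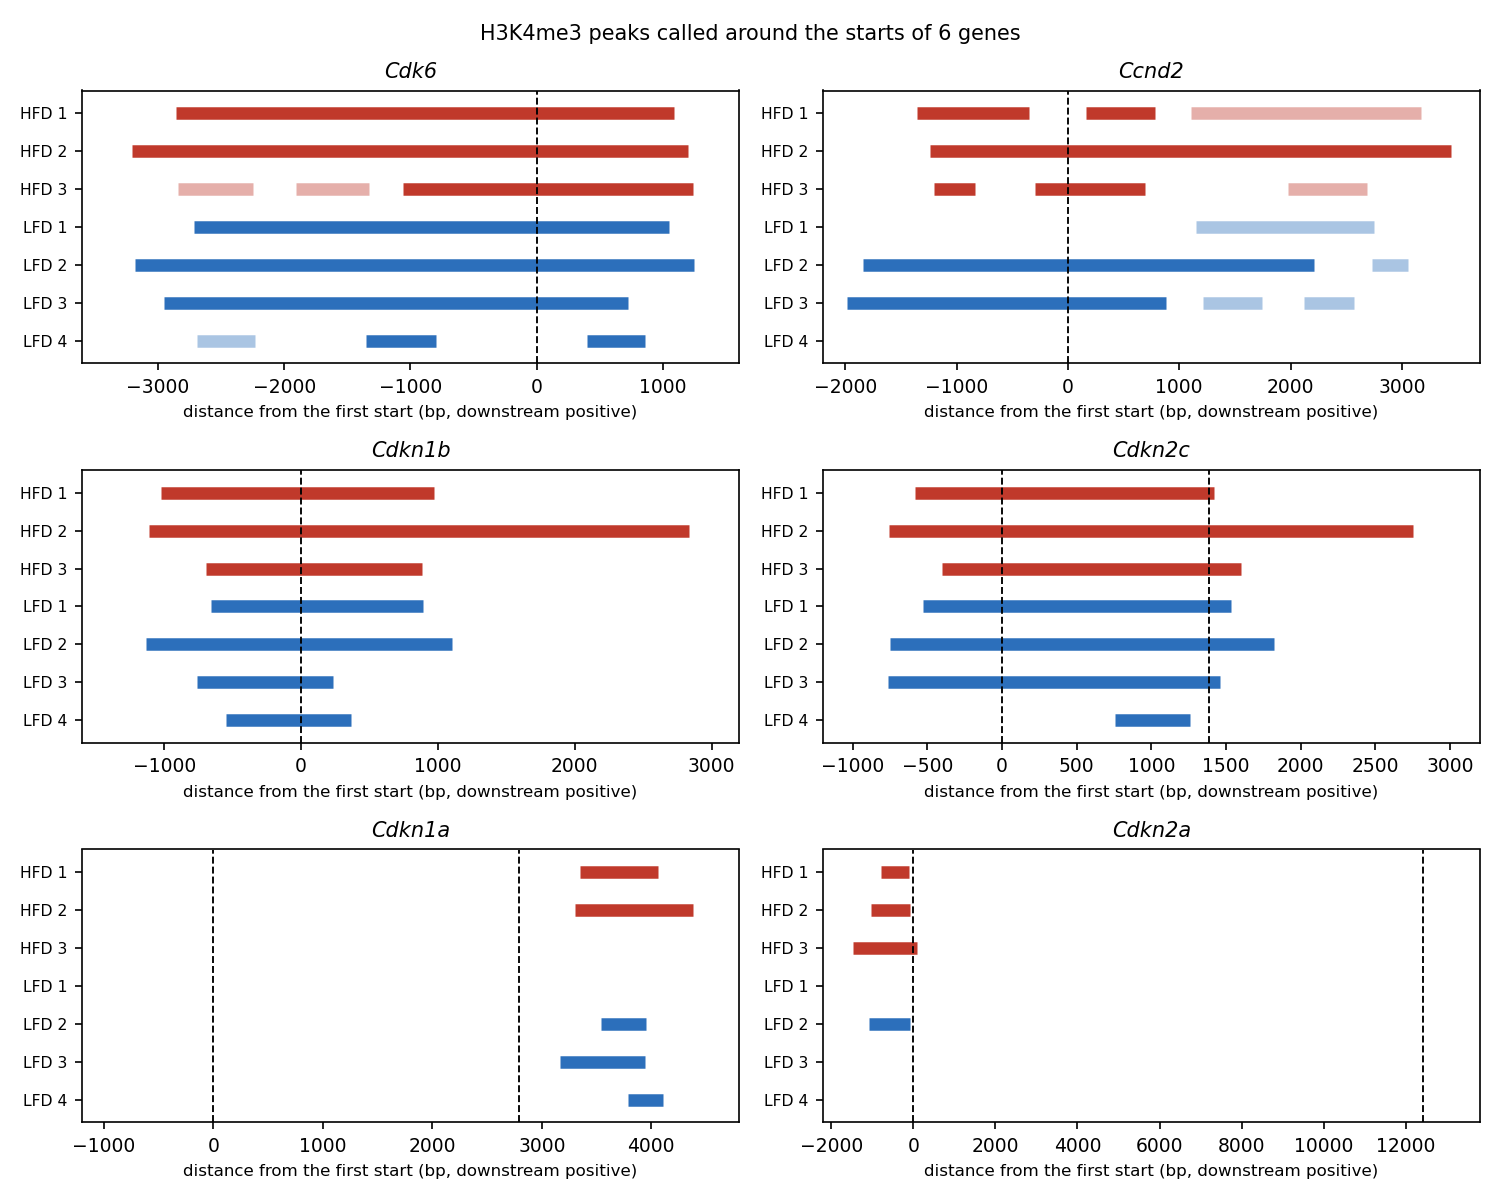
Peaks called around 6 of the genes, by distance in bp from the first annotated start (dashed lines mark each start used, downstream to the right), with HFD-LSK libraries in red and LFD-LSK libraries in blue. Full colour marks peaks within 1 kb of a start and pale colour marks other peaks in the gene. The Cdk6 domain is whole in 5 lists and broken in HFD 3 and LFD 4, Cdkn1a is marked beyond its second start alone, and Cdkn2a is marked at its first start alone, by peaks that lie upstream of it in 3 lists and cover it in HFD 3.

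Among the CDK inhibitors, Cdkn1b, which encodes p27, had the strongest mark by its median rank of 4.45%. The ranks were 4.45%, 0.435%, and 40.2% in HFD-LSK and 2.65%, 0.785%, 22.4%, and 16.1% in LFD-LSK. HFD-LSK replicate 3 was the weakest and HFD-LSK replicate 2 the strongest of all 7, so the diets overlapped throughout (15 ± 21.9, SD, n = 3, against 10.5 ± 10.4, SD, n = 4; two-sided exact permutation test, p = 0.771; adjusted p = 0.982). Without HFD-LSK replicate 3 the difference of 4.56 percentage points turned to -8.02. The peak covered the start at chr6:134920401 in all 7 lists. Its widths were 1992, 3946, and 1582 bp in HFD-LSK and 1552, 2233, 992, and 917 bp in LFD-LSK, the largest difference in mean width among the 5 tested genes at 1083 bp (2507 ± 1260, SD, n = 3, against 1424 ± 610, SD, n = 4; two-sided exact permutation test, p = 0.171; adjusted p = 0.700). One LFD-LSK library, replicate 2, was wider than 2 of the 3 HFD-LSK libraries, and without it the groups no longer overlapped (1353 bp, p = 0.1, exact permutation test). Without HFD-LSK replicate 2, the widest library, the difference fell to 363.5 bp (exact permutation p = 0.6).

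Cdkn2c, which encodes the INK4 protein p18, was called in all 7 lists at both of its starts, which lie 1384 bp apart (chr4:109666756 for the first, minus strand). The ranks were 20.2%, 6.29%, and 10.3% in HFD-LSK and 4.73%, 3.69%, 17.7%, and 30.5% in LFD-LSK. Libraries of both diets stood among the strongest and the weakest values (12.3 ± 7.16, SD, n = 3, against 14.2 ± 12.6, SD, n = 4; two-sided exact permutation test, p = 0.857; adjusted p = 0.986). A single peak joined both starts in 6 lists, with widths between 2003 and 3511 bp, whereas in LFD-LSK replicate 4 a peak of 500 bp lay between them and covered neither.

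Cdkn1a, which encodes p21, the inhibitor induced by p53, was marked at 1 of its starts. No list had a peak within 1 kb of the first start at chr17:29090979, whereas 5 lists had a peak near the second, 2790 bp downstream, where GRCm39 places the start of the canonical transcript. None of the 5 peaks covered the second start itself. They began 372 to 993 bp downstream of it, and that of LFD-LSK replicate 4 reached the 1 kb limit only by its edge. The summits lay 692 to 1168 bp downstream, past 1 kb in HFD-LSK replicate 2 and in LFD-LSK replicates 2 and 4. The ranks were 75.9% and 59.8% in replicates 1 and 2 of HFD-LSK, and they were 93.0%, 37.4%, and 48.8% in replicates 2, 3, and 4 of LFD-LSK. Cdkn1a was not called in HFD-LSK replicate 3 and LFD-LSK replicate 1, so the lists without it came from both diets. Its peaks were narrow, between 325 and 1084 bp, and held 20 to 31 fragments at the summit.

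Cdkn2a gives 2 proteins from separate first exons, p19Arf from the outer start at chr4:89294619 (minus strand) and p16Ink4a from the inner start 12427 bp downstream. The inner start had no peak in any list. The outer start was called in all 3 HFD-LSK lists and in LFD-LSK replicate 2. The ranks were 96.7%, 97.1%, and 47.4% in HFD-LSK and 65.4% in LFD-LSK replicate 2. In HFD-LSK replicates 1 and 2 the peak was thus among the weakest listed, with 20 fragments at the summit in both, where the smallest number listed was 16 and 8. HFD-LSK replicate 3 had 8 fragments and LFD-LSK replicate 2 had 22. Each summit lay 302 to 838 bp upstream of the start, and 1 of the 4 peaks covered the start. The noncoding gene Gm12610 starts within these peaks, so the mark cannot be assigned to Cdkn2a alone.

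Cdkn1c, the imprinted gene of p57, was called in 1 list. HFD-LSK replicate 3 had a peak of 446 bp at its start (chr7:143461059, minus strand) with 6 fragments at the summit and a rank of 74.9%. The other 6 lists had no peak in the gene. A summit of 6 fragments is below the smallest number listed in each of those 6, which was between 8 and 21. These numbers were not scaled for the size of a library. The median summit held 15 fragments in HFD-LSK replicate 3, compared with 19 to 48 across the other lists. Whether a peak of equal strength would have been listed elsewhere therefore cannot be read from them.

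**Figure D3:**
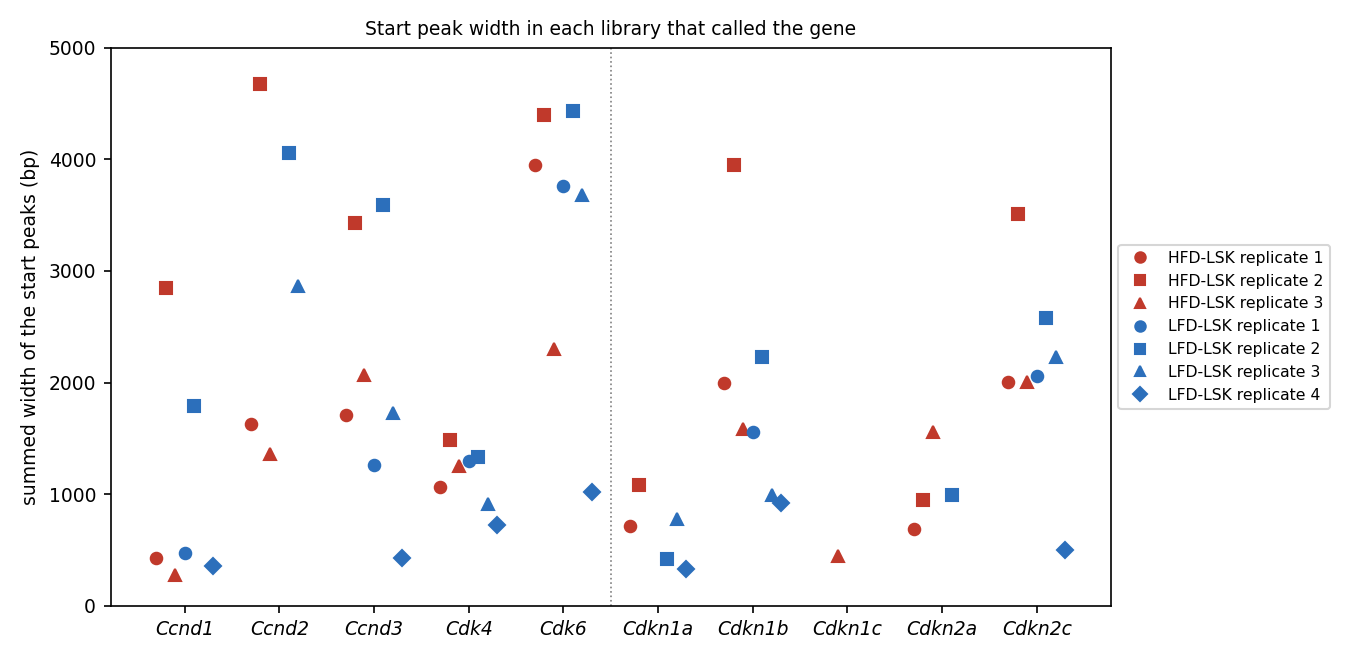
Summed width in bp of the start peaks of each gene in each library that called it, with colours and symbols as in the plot of fold rank. HFD-LSK replicate 2 had the widest start peaks at 6 of the 10 genes, and LFD-LSK replicate 4 had the narrowest at 6 of the 7 genes it called.

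No start peak width separated the diets at any of the 5 tested genes. Over all genes called in all 7 lists, 6.78% were wider in each HFD-LSK library, 0% were narrower in each, and HFD-LSK was wider by 289 bp in the median. No gene passed an adjusted p of 0.05 for width in the exact permutation test (199 had an unadjusted p under 0.05). The smallest possible p limits this test after adjustment in the same way as for rank. At Ccnd3 the widths, summed over both starts, were 1708, 3430, and 2066 bp in HFD-LSK and 1258, 3588, 1730, and 426 bp in LFD-LSK. The 426 bp of LFD-LSK replicate 4 come from the inner start alone. The difference was 650.8 bp (two-sided exact permutation test, p = 0.457, adjusted p = 0.736). At Cdk6 the summed widths of 3549 ± 1110 bp (SD, n = 3) and 3222 ± 1510 bp (SD, n = 4) differed by less than their spread, and the sign of that difference turned without HFD-LSK replicate 2 (-98.0 bp) or LFD-LSK replicate 4 (-407.7 bp). At Cdkn2c the difference was 665.7 bp and at Cdk4 it was 199.2 bp, and neither exceeded the spread over libraries (two-sided exact permutation test, p = 0.543 and 0.371; adjusted p = 0.762 and 0.704). The sizes moved with single libraries. Without HFD-LSK replicate 2 they were 163.5 bp at Cdkn2c, 88.75 bp at Cdk4, and 136.5 bp at Ccnd3, and without LFD-LSK replicate 4 they were 218.7, 86.0, and 209.3 bp. Without LFD-LSK replicate 2 the Ccnd3 difference was 1263 bp, and without HFD-LSK replicate 1 the Cdk4 and Ccnd3 differences were 301.8 and 997.5 bp.

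Placed by mean rank over the 7 libraries, the genes called in all lists ran from Cdk4 (6.52 ± 5.75%, SD, n = 7) through Cdkn1b (12.4 ± 14.8%), Cdkn2c (13.3 ± 9.90%), and Cdk6 (15.7 ± 9%) to Ccnd3 (43.1 ± 20.2%). For Ccnd3 the rank is that of whichever of its starts had the stronger peak in a list. Of 4 neighbouring pairs compared by an exact sign-flip permutation test over libraries (two-sided), the largest gap was between Cdk6 and Ccnd3 (27.4 ± 23.0 percentage points, SD, in the same direction in 6 of 7 libraries, p = 0.0312; adjusted over the 4 pairs, p = 0.125). The other 3 gaps were 0.919 to 5.90 percentage points (exact permutation p of 0.391 to 0.859). Neighbours were taken from the same mean ranks, which keeps their gaps small, and genes farther apart, such as Cdk4 and Cdk6, were not compared. These tests therefore cannot show whether the kinases and the inhibitors p27 and p18 differ.

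The contrast of inhibitors with entry genes was taken in each library as the median rank of the 5 inhibitors minus that of the 5 entry genes, with a gene that was not called set to 100%. On this measure the inhibitors stood below the entry genes in each library, by 29.5, 29.3, and 20.2 percentage points in HFD-LSK and by 52.7, 42.5, 15.6, and 5.38 in LFD-LSK. The group means were 26.4 ± 5.31 (SD, n = 3) and 29.1 ± 22.2 (SD, n = 4), with the HFD-LSK values inside the range of the LFD-LSK values. The value of LFD-LSK replicate 1 rests on the assigned 100%, since 3 of 5 inhibitors were not called there. Among the inhibitors Cdkn1a, Cdkn1c, and Cdkn2a held the low places, whereas Cdkn1b and Cdkn2c stood beside the kinases.

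For each of the 5 genes called in all 7 lists, the gene whose 7 ranks were nearest was taken out of 5371. This was Dnajb14 for Ccnd3 (mean absolute difference of 4.30 percentage points over 7 libraries), Nap1l4 for Cdk4 (2.78), Gm36470 for Cdk6 (2.19), Ap4s1 for Cdkn1b (1.59), and Gm45950 for Cdkn2c (4.47). Gm36470 shares its peak with Cdk6 in 6 of 7 lists, so these ranks are not independent.

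Of 19 other genes of the same pathway, 12 were called in all 7 lists and 7 in some. Called in all 7 lists were 11.9% of all genes with a placed start and 21.8% of protein-coding genes. None of the 12 had an unadjusted p under 0.05 for rank by diet in the exact permutation test (lowest p = 0.371). Over all 5372 genes tested, 0 passed after adjustment. By mean rank the strongest of the 12 was Cks1b, a small subunit of CDK complexes, at 15.1 ± 12.1% (SD, n = 7), and the weakest was Ccnh, the cyclin of the CDK-activating kinase, at 57.2 ± 21.5%. The 7 not called throughout were Ccne2 (cyclin E2), Cdk1, Rb1, and E2f1 with 6 lists each, E2f2 with 4, Mnat1 (assembly factor of the CDK-activating kinase) with 3, and Cdkn2b with 1. All 7 were missing from LFD-LSK replicate 4, the shortest list. Cdkn2b encodes p15, the INK4 neighbour of Cdkn2a, and its single call was in HFD-LSK replicate 2 at rank 80.5%.

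The RefSeq promoter windows (250 bases before to 50 after a start) were held for 7 of the 10 genes, with 11 starts. The marked and unmarked starts within a gene differed in CG pairs at Cdkn1a and Cdkn2a. The first Cdkn1a window has 2 CG pairs and was called in no list. The second has 23 and was called in 5, by peaks that lay downstream of the start. The outer Cdkn2a window has 45, more than 98.4% of promoters, and was called in 4, and the inner has 12 and was called in none. Over the whole table the median was 25.5 CG pairs for starts called in all 7 lists and 3 for starts called in none. Cdkn2c departs from this order, since its second start has 8 CG pairs and was called in all 7 lists, as was its first with 33, 1384 bp away. In 6 of the lists a single peak covered both of these starts and was counted at each.

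**Figure D4:**
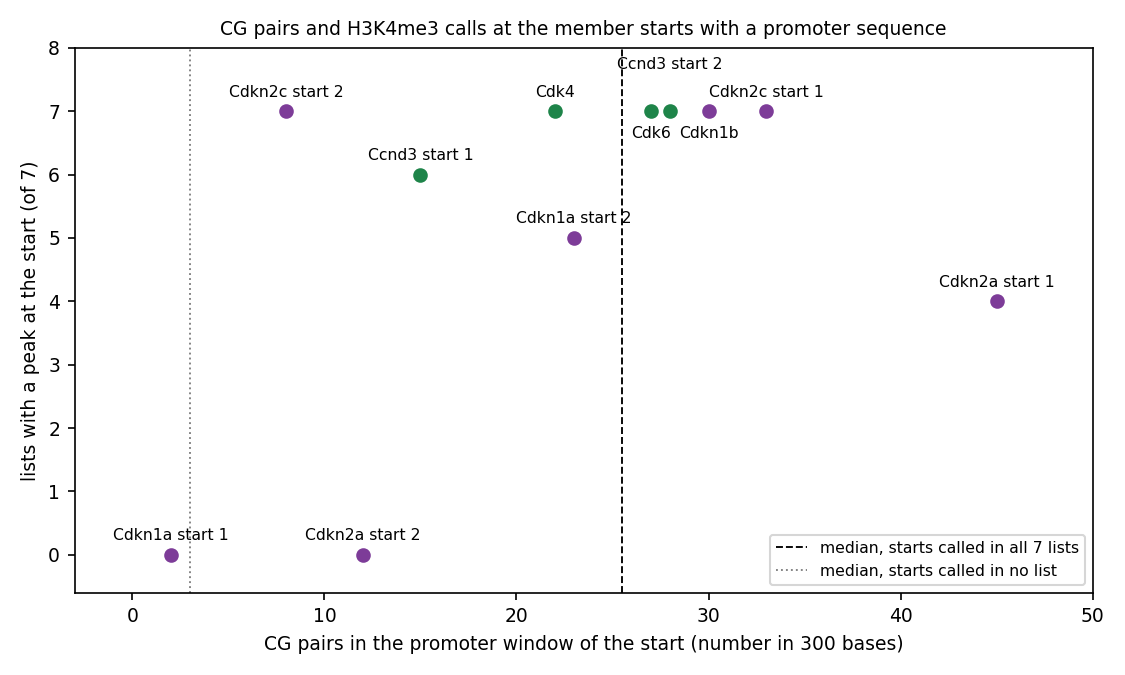
Number of CG pairs in the promoter window of 300 bases (horizontal axis) and number of lists with a peak at that start (vertical axis, of 7) for the 11 starts of 7 genes, entry genes in green and inhibitors in purple. The dashed line marks the median of starts called in all 7 lists (25.5) and the dotted line that of starts called in none (3). Both starts without a call have 12 CG pairs or fewer. A peak within 1 kb counts as a peak at the start, and those counted for Cdkn1a lay downstream of its second start.

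Letters of 5 known motifs were counted on both strands of these windows. GGGCGG, the GC box, was present in 8 of 11 (35.7% of all promoters), and it is absent from the first Cdkn1a window and from those of Cdk6 and the second Cdkn2c start. CACGTG, the E box, was present in 3 of 11 (7.15% of all promoters), with 4 copies at Cdk4. TTCCCGC, an E2F type motif, was present at the outer Cdkn2a start and the first Cdkn2c start (2 of 11, 4.6% of all promoters), and TTGGCGC, another, in none (2.45%). TATAAA was present at Cdk6 (1 of 11, 13.6%). A match of letters describes the window and does not show that a factor binds there.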

How the data were processed

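LSK cells from HFD mice (3 libraries) and LFD mice (4 libraries) were profiled for H3K4me3 by CUT&Tag, and 1 peak list per library was analyzed. The members and the gene lists were chosen with earlier results of these data known. Per the submitters' processing notes, the files come from Trim Galore, Bowtie2, Picard, MACS2, bedtools, HOMER, and featureCounts with GRCm38. The study's methods name GRCm39 and SEACR instead. The coordinates were read as GRCm38, since coding gene starts of that build had 77.9% to 90.5% of each list within 1 kb, compared with 7.52% to 8.32% for GRCm39. With every peak position the authors deposited its fold (a ratio of summit to local background), a −log10 p-value, a −log10 q-value, and a whole-number score, which was not used. All peaks of the lists had a p of at most 1e-05. Fold moves with the background of a library and was compared as a rank within the list, with tied peaks sharing their mean rank.

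Gene starts came from a RefSeq promoter table of GRCm38.p6 and, for Ccnd1, Ccnd2, and Cdkn1c, from the upstream end of the gene, with strands taken by symbol from GENCODE vM39 (GRCm39). No coordinate was converted between builds, and exon positions were not used. A gene with several start peaks took its highest fold and the sum of the widths. Calls by diet were tested by Fisher's exact test. Ranks and widths were tested by two-sided exact permutation over the 35 ways to choose 3 of 7 libraries, with Benjamini-Hochberg adjustment over all genes tested. Fragments at a summit were inferred by inverting the fold and the Poisson p of MACS2 with 1 scale per library, and all peaks could be solved within a relative error of 5e-05. Fragment numbers cover counting error only, and read totals are not given in the lists. The steps were tested on simulated data. Alternatives covered the strength limit and the length of the lists, the distance from a start, the measure of rank and width, a replicate block, and each library left out. The named genes were the 10 members, other pathway genes not called in all 7 lists, the first and last of those called in all 7, and the gene nearest in rank to each member. Python 3.11.15, NumPy 2.4.6, pandas 2.3.3, SciPy 1.17.1, and matplotlib 3.10.9 were used. One gene of the marker lists is not reported here.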

Additional observations from a re-analysis of the deposited data

How the results depend on the processing

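Of 144 differences between the diets recomputed for single genes, 127 kept their sign and their side of the threshold, 15 changed sign, and 2 passed p = 0.05 (Cdk6 fold rank, exact permutation p of 0.0286 with 3 kb around starts and with ranks among starts called in all 7 lists, the smallest p possible). The number of genes called in all 7 lists stayed between 4 and 6. The number with separate fold ranks was 0 with the summit within 1 kb of the start, with ranks by −log10 p, with the upstream end of the gene as the single start, and with ranks by fragments, and 1 otherwise. With the summit within 1 kb Cdk6 was not called in all 7 lists, so its ranks were not tested in that setting. The settings with the upstream end and with ranks by fragments, and the contrast over genes called in all 7 lists alone (13.5), were chosen after seeing the data. The contrast of inhibitors and entry genes, -2.69 percentage points for HFD-LSK minus LFD-LSK, ranged from -22.8 to 13.5 and had no fixed sign.

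Among fold ranks the sign turned for Cdkn2c with lists trimmed to equal length (1.904), ranks by −log10 p (2.102), and ranks among starts called in all 7 lists (0.1512), for Cdkn1b with ranks by −log10 p (-3.067), for Cdk6 with the upstream end of the gene (17.82), and for Ccnd3 with ranks by fragments (-0.7127). Among widths it turned for Cdk4 as a percentile within the list (-1.54). The cause was not tested. Leaving out 1 library moved the fold rank difference of Ccnd3 from -0.2108 to 20.17, of Cdkn1b from -8.021 to 11.86, and of Cdkn2c from -5.873 to 3.555, and the width difference of Cdk6 from -407.7 to 953 bp. The other width differences kept their sign, from 136.5 to 1263 bp at Ccnd3, 86 to 301.8 bp at Cdk4, 363.5 to 1546 bp at Cdkn1b, and 163.5 to 917.5 bp at Cdkn2c. It moved the number of genes called in 1 diet alone from 0 to 1 (Cdkn2a) and the number with separate widths from 0 to 1 (Cdkn1b), both without LFD-LSK replicate 2. No share of all genes is given here for either count without that library. With 1 library left out the exact permutation test could not pass its threshold (smallest p of 0.0667 or 0.1).

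The labels give both diets the replicate numbers 1 to 3. Deviations from the group means correlated at 0.183, 0.0169, and 0.0425 for equal numbers, so the numbers are not shown to pair the libraries. The study's own analysis allowed for batch and pairing, which the labels do not tie to these libraries, so cohort could not be entered. With a replicate block over these 3 pairs, the width of 1 gene (Cdkn1b) differed in the same direction in every pair, the Cdk6 width difference was -407.7 bp, and the Cdkn2c fold rank difference was 3.555. The smallest p of that fit is 0.25, so a shared direction in every pair cannot pass 0.05. No share of all genes is given here for widths that differed in the same direction in every pair. Without pairing, HFD-LSK was wider by 289 bp in the median over all genes called in every list. Of those genes 6.78% were wider in each HFD-LSK library and 0% were narrower in each. The Cdkn1b width is therefore not shown to stand out from other genes. The lists limit what can be seen by their own thresholds of 4 to 21 fragments at a summit.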
